A study of Arabidopsis thaliana with 16 samples.

Results

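The 10 seed storage protein and oleosin genes described here were taken by locus from tables of 32548 Arabidopsis thaliana genes. They comprise the 12S cruciferin genes CRA1 (AT5G44120), CRB (AT1G03880) and CRC (AT4G28520), the 2S albumin genes SESA1 (AT4G27140), SESA2 (AT4G27150), SESA3 (AT4G27160), SESA4 (AT4G27170) and SESA5 (AT5G54740), and the oleosin genes OLEO1 (AT4G25140) and OLEO2 (AT5G40420). RefSeq lists CRB as CRU2 and CRC as CRU3. All 10 genes passed the filter on low values used below. Lysine 2-hydroxyisobutyrylation (Khib), an acyl mark of histone lysines, was measured by chromatin immunoprecipitation and sequencing (ChIP-seq) in whole 12-day-old seedlings. The genotypes were sant-null, which the labels call quadruple mutants, an hda6 line made by EMS mutagenesis, an hda9 line with a T-DNA insertion, and the wild type Col-0. All were untreated and grown on plates at 22 °C with 16 h of light per day, and the labels give no allele names. Each genotype had 2 ChIP and 2 input libraries, and the tables hold 1 ChIP value per genotype, so that no difference below has a replicate check.

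Cruciferins and 2S albumins (napins) are made in the maturing embryo, packed into protein storage vacuoles and broken down after germination to feed the seedling. Oleosins coat the oil bodies of the seed and keep them from fusing. Their genes are switched on during seed maturation by the B3-domain factors ABI3, FUS3 and LEC2 with bZIP partners, and are silenced once the seedling grows. HDA6 and HDA9 encode histone deacetylases, and HDA6 is known to help keep embryonic genes silent after germination.

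The unit was RPKM, reads per kilobase of gene scaled to the depth of the library, which is a level per length. Comparisons of level between genes below have no control for gene length, which is 688 bp for SESA4 and 10300 bp for PKL. The values gave whole reads for depths of 12.0 M in sant-null, 16.8 M in hda6, 38.8 M in hda9 and 18.6 M in Col-0. Intervals given with levels and folds are exact 95% intervals on those reads. They cover counting error alone, and the reads of a ChIP library need not be separate molecules. Levels whose intervals overlap can still have a fold interval that leaves out 1. Examples against Col-0 are CRA1 in hda6 (0.816 to 0.983), SESA3 in hda6 (0.719 to 0.947) and OLEO2 in hda9 (0.727 to 0.977). No input values were used, and a whole seedling cannot tell less mark per cell apart from fewer cells with the mark.

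Khib was high over most of these genes in every genotype. The median over the 10 members was 18.9 RPKM in sant-null, 24.5 in hda6, 15.5 in hda9 and 27.6 in Col-0, while across all genes sant-null had a median of 7.86 RPKM, hda6 of 7.08, hda9 of 8.88 and Col-0 of 5.63. Every member lay above the median of all genes in all 4 genotypes. Of the 10, 5 lay above the 90th percentile of all genes in sant-null, 7 in hda6, 5 in hda9 and 7 in Col-0. Together they held 0.0360% of gene reads in sant-null (0.0347% to 0.0373%, Clopper-Pearson), 0.0459% in hda6 (0.0446% to 0.0472%), 0.0289% in hda9 (0.0283% to 0.0296%) and 0.0514% in Col-0 (0.0500363% to 0.0527%). The share was thus lowest in hda9 and highest in Col-0, with intervals that do not overlap.

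**Figure D1:**
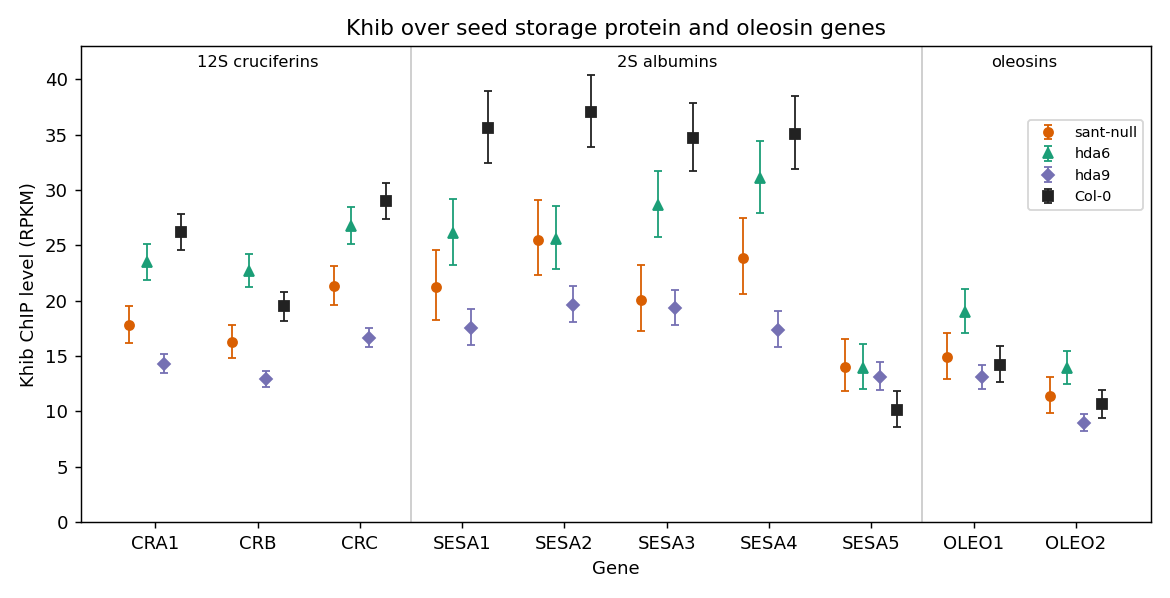
Khib level in RPKM of the 10 genes (x axis, grouped by family), with 1 point per genotype and exact 95% counting intervals as bars. SESA1 to SESA4 sit between 34.7 and 37.0 RPKM in Col-0, above all mutant points, whereas SESA5 and the oleosins stay below 20 RPKM in every genotype.

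The 12S cruciferin genes encode the globulins that make up much of the seed protein, and CRA1 and CRC had the same order of genotypes. CRA1 (chromosome 5, 17756238 to 17758336, minus strand, TAIR10) had 17.8 RPKM in sant-null, 23.5 in hda6, 14.3 in hda9 and 26.2 in Col-0. CRC (chromosome 4, 14087556 to 14089796, plus strand) had 21.3 RPKM in sant-null, 26.7 in hda6, 16.7 in hda9 and 28.98 in Col-0. For both genes the counting intervals of hda6 and Col-0 overlapped, while sant-null lay below both and hda9 below sant-null. CRB (chromosome 1, 985751 to 988146, plus strand) had 16.2 RPKM in sant-null, 22.7 in hda6, 12.9 in hda9 and 19.5 in Col-0. Its highest value was that of hda6 rather than Col-0, and no neighbouring intervals in its order overlapped.

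The 2S albumin genes SESA1 to SESA4 lie next to each other on the plus strand of chromosome 4, between 13607329 and 13614283, and carried the highest Khib of all members in Col-0 and hda9. SESA1 had 21.2 RPKM in sant-null, 26.1 in hda6, 17.6 in hda9 and 35.6 in Col-0. SESA2 had 25.5 RPKM in sant-null, 25.6 in hda6, 19.7 in hda9 and 37.0 in Col-0. In both genes every mutant interval lay below that of Col-0. SESA3 had 20.1 RPKM in sant-null, 28.6 in hda6, 19.3 in hda9 and 34.7 in Col-0. SESA4 had 23.9 RPKM in sant-null, 31.1 in hda6, 17.4 in hda9 and 35.1 in Col-0. For SESA3 and SESA4 the intervals of hda6 and Col-0 overlapped, and those of the other mutants lay lower. Within a genotype the 4 genes were alike: the highest was 1.27 times the lowest in sant-null, 1.21 times in hda6, 1.13 times in hda9 and 1.07 times in Col-0, and their counting intervals all overlapped in each genotype. In Col-0 they ranked between percentiles 97.2 and 97.5 of all genes, and in hda9 between 93.2 and 95.3.

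SESA5, the member of the 2S albumin family that stands alone on chromosome 5 (22238358 to 22239187, minus strand), did not share this pattern. It had 14.1 RPKM in sant-null, 13.95 in hda6, 13.1 in hda9 and 10.2 in Col-0. Col-0 was the lowest on the deposited scale, and the intervals of the 3 mutants overlapped each other. Pooled over their length, SESA1 to SESA4 stood at 1.61 times the level of SESA5 in sant-null, 1.99 times in hda6, 1.41 times in hda9 and 3.50 times in Col-0. This ratio between genes of one genotype is not changed by scaling a genotype with 1 factor, but quantile normalization changes it.

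The oleosin genes had lower levels than SESA1 to SESA4 in every genotype. OLEO1 (chromosome 4, 12900430 to 12901577, plus strand), the gene of the most abundant seed oleosin, had 14.9 RPKM in sant-null, 18.98 in hda6, 13.1 in hda9 and 14.2 in Col-0. OLEO2 (chromosome 5, 16173340 to 16174783, minus strand) had 11.4 RPKM in sant-null, 13.9 in hda6, 8.97 in hda9 and 10.6 in Col-0. In both genes hda6 was highest and hda9 lowest. The intervals of sant-null, hda9 and Col-0 overlapped between neighbours in the order. OLEO1 shares 44 bp with AT4G25150 and OLEO2 shares 15 bp with AT5G40410, so that a few reads count for both genes.

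The series concerns SANT domain-containing proteins, and the first comparison set the sant-null line against Col-0. The difference is given as a log2 ratio, mutant over Col-0, after 1 RPKM was added to both values, which understates the change of low genes. A gene was counted as higher or lower from 1.5-fold on this scale. Of the 10 members, 2 were lower and 0 higher. Among the 31805 genes past the filter (1 RPKM or more in 2 or more genotypes), 6.01% were lower and 23.7% higher. The lower members were SESA3, with a log2 ratio of -0.76 and a fold of 0.579 (0.487 to 0.687), and SESA1, with -0.72 and a fold of 0.597 (0.499 to 0.710). SESA4 had -0.54, CRA1 -0.53, SESA2 -0.52, CRC -0.42 and CRB -0.25, all short of 1.5-fold, with fold intervals below 1. OLEO1 (0.064) and OLEO2 (0.093) had intervals that hold 1, and SESA5 had 0.43 with a fold of 1.38 (1.09 to 1.75). The median over the members was -0.47, or -0.75 relative to the median of all genes, which was 0.28. Without SESA1 to SESA4 the median of the other 6 was -0.092.

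In hda6, the mutant of the deacetylase HDA6, no member reached 1.5-fold in either direction, where 3.05% of all genes were lower and 9.08% higher. The members lay on both sides of 0. SESA2 had the lowest log2 ratio, -0.52, with a fold of 0.691 (0.599 to 0.797), followed by SESA1 at -0.43, with a fold of 0.733 (0.633 to 0.849). SESA3 had -0.27, SESA4 -0.17, CRA1 -0.15 and CRC -0.11. On the other side were SESA5 at 0.42, OLEO1 at 0.40 with a fold of 1.34 (1.15 to 1.56), OLEO2 at 0.35 and CRB at 0.21. The fold interval lay below 1 for 4 members and above 1 for another 4. The median of the members was -0.13, or -0.33 relative to the all-gene median of 0.20, and it was 0.28 without SESA1 to SESA4, so that its sign rests on that cluster.

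In hda9, the mutant of the deacetylase HDA9, 6 of the 10 members were lower by at least 1.5-fold and 0 higher, where 9.08% of all genes were lower and 43.7% higher. SESA1 had a log2 ratio of -0.98 with a fold of 0.494 (0.434 to 0.563). SESA4 had -0.97 with a fold of 0.496 (0.435 to 0.566). Both levels were near 0.5 of that in Col-0, and SESA2 (-0.88), CRA1 (-0.83), SESA3 (-0.81) and CRC (-0.76) followed. CRB had -0.56, just short of the threshold, OLEO2 -0.22 and OLEO1 -0.11, while SESA5 had 0.34 with a fold of 1.29 (1.07 to 1.56). The median was -0.79, or -1.27 relative to the all-gene median of 0.48, and it was -0.39 without SESA1 to SESA4. The 3 comparisons share the Col-0 values, so their common direction at SESA1 to SESA4 and at SESA5 is not independent between mutants.

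**Figure D2:**
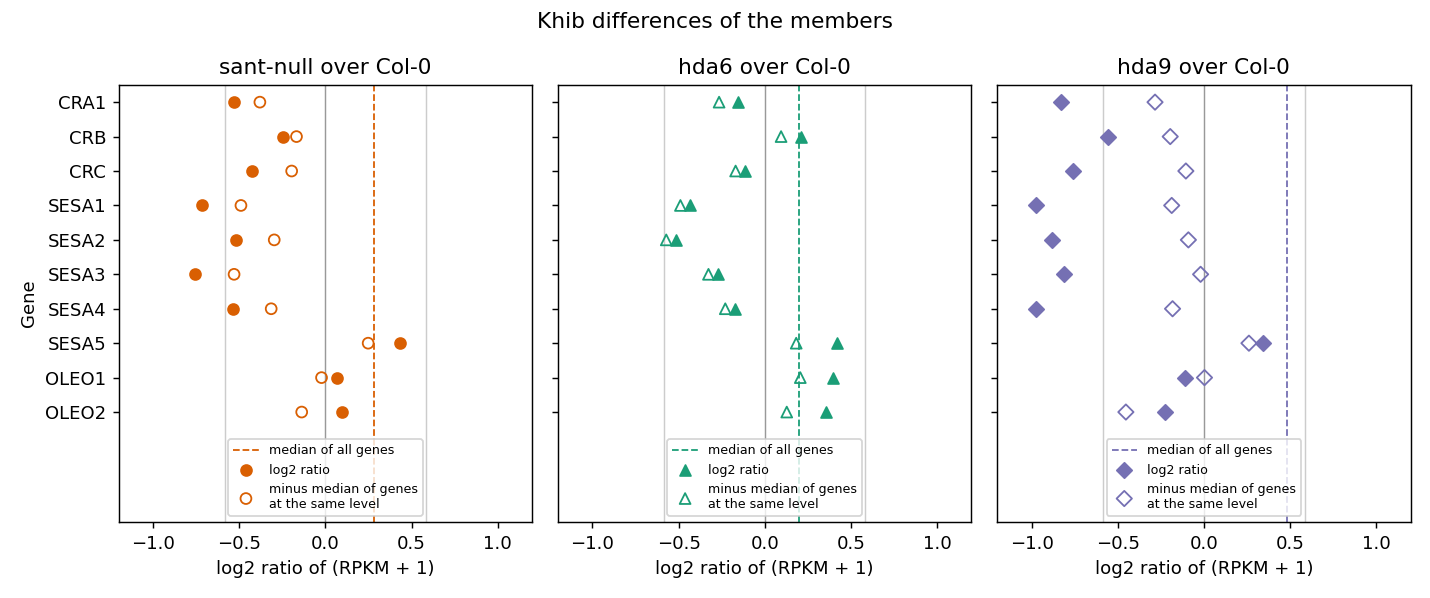
Log2 ratio of (RPKM + 1) over Col-0 for each member (rows) in sant-null, hda6 and hda9 (panels). Filled symbols are the ratio, open symbols the ratio minus the median of genes at the same level, dashed lines the median of all genes, and grey lines mark 0 and 1.5-fold; in hda9 the filled symbols of SESA1 to SESA4 lie between -0.81 and -0.98 and their open symbols between -0.019 and -0.19.

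The size of these differences was next set against genes of a similar Khib level, because the spread of values differed between genotypes. The 90th percentile of gene values was 8.21 times the 10th in sant-null, 11.7 times in hda6, 3.52 times in hda9 and 9.82 times in Col-0. Genes in the level bin of SESA1 to SESA4 had a median log2 ratio of -0.79 in hda9, against -0.93 for these 4 genes. After the median of 50 bins of mean level was subtracted, the members had a median of -0.14 in hda9, with 0 lower at 1.5-fold, where 10.5% of all genes were lower and 9.56% higher. SESA3 was then at -0.019, SESA2 at -0.090 and CRC at -0.10. OLEO2 was the lowest at -0.45, at percentile 15.7 of all genes.

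The same step left larger differences in the other mutants for the 2S albumin cluster. In sant-null, SESA3 was at -0.53 and SESA1 at -0.49 after subtraction, at percentiles 10.03 and 11.4 of all genes, and the median of the members was -0.25, with 9 of 10 below 0 and SESA5 above at 0.25. This tilt is not particular to the members. In the lists read below, 8 of 9 leaf genes, 8 of 10 floral genes, 14 of 19 other seed genes and 10 of 15 regulators were below 0. The median was -0.67 for leaf genes and -0.30 for floral genes. In hda6, SESA2 was at -0.57 and SESA1 at -0.49, at percentiles 4.17 and 5.94, and the median of the members was -0.20. Leaf genes lay lower in hda6 too, with a median of -0.51 and 8 of 9 below 0. The hda6 median was -0.052 for floral genes, -0.087 for other seed genes and -0.073 for regulators. The median over SESA1 to SESA4 was -0.40 in sant-null, -0.41 for hda6 and -0.14 for hda9 on this scale. At 1.5-fold, 0 members were lower or higher in sant-null (8.35% and 7.36% of all genes) and 0 in hda6 (3.9% and 3.31%).

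Counts also moved with the scaling between genotypes. With equal medians, 7 members were lower in sant-null, where 17.9% of all genes were lower and 4.67% higher. For hda6 there were 3 lower members beside 7.07% lower and 1.95% higher genes, and for hda9 9 beside 24.9% and 12.8%. After quantile normalization, 2 members were lower in sant-null beside 7.78% lower and 7.37% higher genes, 1 for hda6 beside 3.82% and 3.68%, and 1 for hda9 beside 15% and 13.9%. No member was higher at 1.5-fold under any of these scalings. The sign at SESA5 depended on the scaling. With equal medians its log2 ratio was -0.0033 in sant-null, 0.11 for hda6 and -0.24 for hda9. After quantile normalization it was 0.21 in sant-null, 0.14 for hda6 and 0.28 for hda9.

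**Figure D3:**
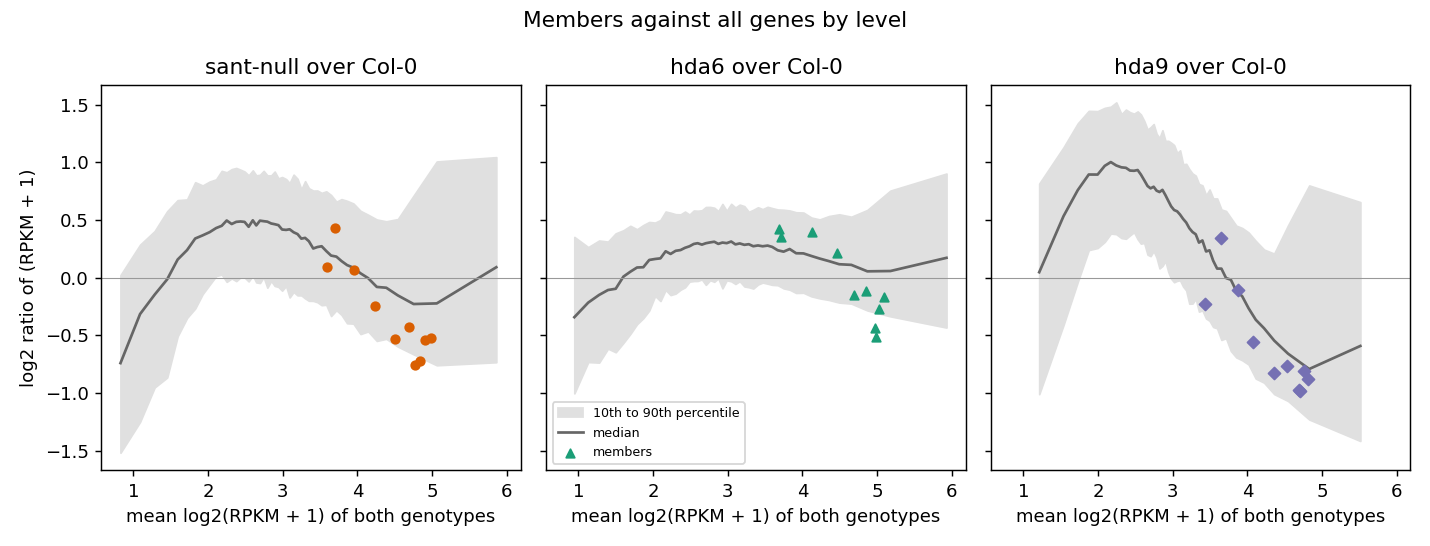
Log2 ratio of (RPKM + 1) over Col-0 (y axis) by mean log2(RPKM + 1) of both genotypes (x axis), with the median (line) and the 10th to 90th percentile (band) of all genes in 50 bins and the 10 members as points. In hda9 all 10 members lie within the band; SESA1 and SESA3 in sant-null, at -0.72 and -0.76, and SESA1 and SESA2 in hda6, at -0.43 and -0.52, lie below it.

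The genes around the members were examined to see whether the differences extend to the chromosomal neighbourhood. Each of SESA1 to SESA4 was higher than all 10 neighbouring genes in every genotype. Pooled, they had 22.6 RPKM in sant-null, 27.8 in hda6, 18.5 in hda9 and 35.6 in Col-0. The genes directly beside them, AT4G27130 and the kinesin gene ATK2, had a pooled 5.005 RPKM in sant-null, 4.02 in hda6, 7.19 in hda9 and 2.96 in Col-0. The cluster was thus 4.52 times its flanks in sant-null (4.00033 to 5.12), 6.92 times in hda6 (6.21 to 7.73), 2.58 times in hda9 (2.42 to 2.75) and 12.0 times in Col-0 (10.7 to 13.5). The contrast was smallest in hda9 and the intervals of the 4 genotypes do not overlap. The range of all genes past the filter was narrowest in hda9 too. There the 90th percentile was 3.52 times the 10th, against 8.21 times in sant-null, 11.7 times in hda6 and 9.82 times in Col-0. Whether the contrast differs from that of other high genes beside low ones was not tested.

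Over the 10 closest other genes on both sides, 5 each, the ratio of a member to the median of its neighbours was lower than in Col-0 for 10 of 10 members in sant-null, 8 of 10 for hda6 and 10 of 10 for hda9. SESA1 to SESA4 have the same 10 neighbours, so their ratios are not separate observations. The share of all genes with a lower ratio was not computed, and these counts alone are no result about the members. CRA1 stood at 1.93 times its neighbours in sant-null, 3.19 times in hda6, 1.51 times in hda9 and 4.79 times in Col-0. It remained the highest of the 11 genes in each genotype. OLEO2 stood at 1.83 times in sant-null, 2.81 times in hda6, 0.865 times in hda9 and 3.12 times in Col-0, so that in hda9 it lay below the median of its neighbours. The median log2 change of this ratio against Col-0 was -1.04 over the members in sant-null, -0.092 over all genes and -0.41 over the genes within the members' range of Col-0 levels. For hda6 the values were -0.41 over the members, -0.061 over all genes and -0.14 over the genes in that range, and for hda9 they were -1.76, -0.059 and -0.81. Over the 116 genes at the Col-0 level of SESA1 to SESA4, the median change was -0.61 in sant-null, -0.33 for hda6 and -1.24 for hda9. SESA1 to SESA4 all lay below these medians. The lowest member was SESA3 at -1.87 in sant-null, SESA2 at -0.86 for hda6 and SESA1 at -2.15 for hda9. Both sets of comparison genes were picked by the Col-0 level itself, which favours lower ratios.

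Of the 70 neighbours of the 10 members, 17 were higher and 0 lower at 1.5-fold in sant-null, 5 and 0 for hda6, and 28 and 7 for hda9. As shares, 24.3% were higher in sant-null and 7.14% for hda6, and the shares in hda9, 28 and 7 of 70, likewise lay near those of all genes (43.7% higher and 9.08% lower), so the counts are no result about these neighbourhoods. At the second place from CRA1, the prohibitin gene PHB7 had 8.72 RPKM in sant-null, 6.75 in hda6, 12.7 in hda9 and 3.93 in Col-0. Beyond ATK2, AT4G27190 had 10.1 RPKM in sant-null, 5.68 in hda6, 12.4 in hda9 and 4.05 in Col-0. Both were highest in hda9, where CRA1 and SESA1 to SESA4 were lowest. Some neighbours with high levels were lowest in hda9 too. FLA9 beside CRB and FLA13 beside CRA1, genes for fasciclin-like arabinogalactan proteins, had log2 ratios of -0.72 and -0.68 in hda9, the metacaspase gene MC2 near OLEO1 had -0.81, NAC073 near CRC -0.66, and AT4G27240 near SESA4 -0.79. DEG16 beside SESA5 went the other way, with 6.91 RPKM in hda9 and 1.04 in Col-0.

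**Figure D4:**
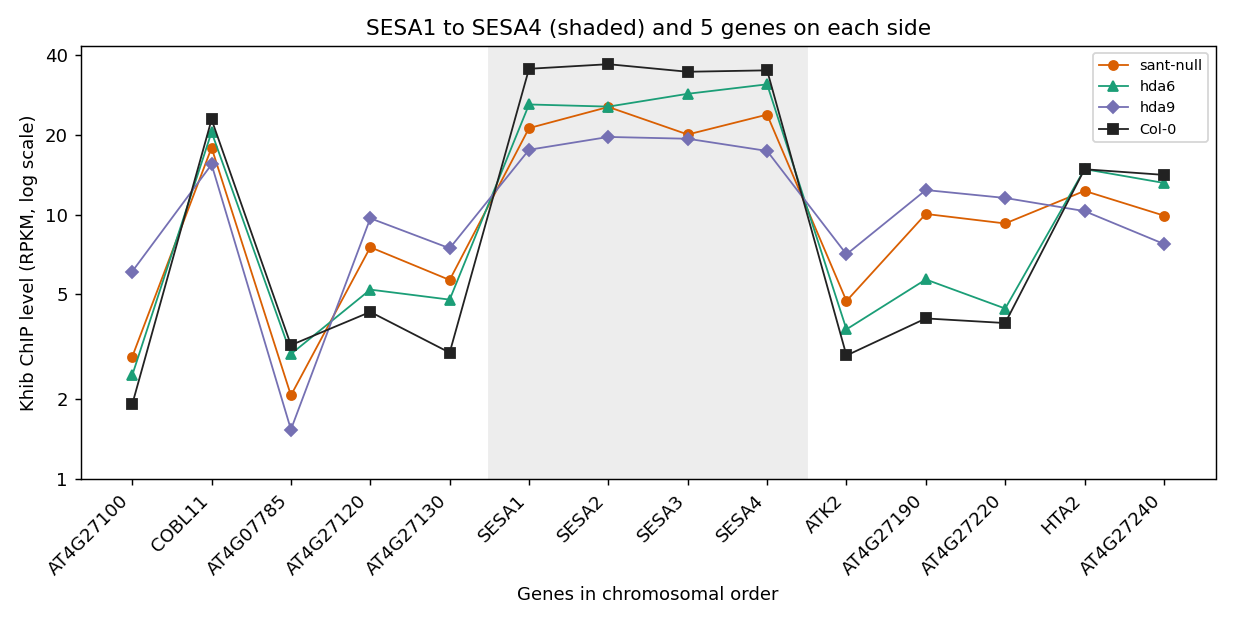
Khib level in RPKM (y axis, log scale) of SESA1 to SESA4 (shaded) and of 5 genes on each side in chromosomal order (x axis), with 1 line per genotype. The lines cross at the edges of the cluster: hda9 is lowest inside it, at 17.4 to 19.7 RPKM, and highest at AT4G27130 and ATK2.

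A list of 20 other genes of the seed programme was read beside the members. Of these, 19 passed the filter, 3 were higher and 0 lower in sant-null, 0 and 0 for hda6, and 3 and 4 for hda9. Of all genes, 23.7% were higher and 6.01% lower in sant-null, 9.08% and 3.05% for hda6, and 43.7% and 9.08% for hda9. Their median log2 ratio was -0.0021 in sant-null, 0.12 for hda6 and 0.075 for hda9. The 4 lower genes in hda9 were M17, with 12.0 RPKM in hda9 against 23.7 in Col-0 and a log2 ratio of -0.92, ATS3 (-0.65), AT3G01570 (-0.62) and AT1G03890 (-0.61). With the trend on level removed, M17 was at -0.56, ATS3 at -0.49, AT3G01570 at 0.040 and AT1G03890 at -0.068 in hda9. AT1G03890 lies next to CRB and had 18.2 RPKM in sant-null, 24.9 in hda6, 15.1 in hda9 and 23.7 in Col-0. ATS3 had the lowest ratio of the list in sant-null, -0.56, where sant-null had 12.2 RPKM and Col-0 had 18.5.

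Among further oleosin genes, OLEO3 had 17.5 RPKM in sant-null, 23.1 in hda6, 14.4 in hda9 and 21.5 in Col-0. OLEO4 had 11.2 RPKM in sant-null, 14.3 in hda6, 8.88 in hda9 and 13.0 in Col-0. Both were highest in hda6 and lowest in hda9, the order that OLEO1 and OLEO2 had at their ends. The higher genes of the list were AT2G18540, at 0.84 in sant-null and 1.10 in hda9, KCS18, which encodes the elongase of the very long chain fatty acids of seed oil, at 0.69 in sant-null and 0.72 in hda9, and ATPXG2, at 0.60 in sant-null and 0.68 in hda9. HSD1, a hydroxysteroid dehydrogenase gene of oil bodies, is listed at 0 in every genotype, as is AT5G50700, to which RefSeq gives the same symbol. The sources used here do not say whether reads that match alike copies were left out, and the values of the adjacent SESA1 to SESA4 are uncertain to that extent.

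The regulators of seed maturation carried less Khib than the members by their medians, with ranges that overlap in each genotype. The median over 15 such genes was 8.37 RPKM in sant-null, 8.60 in hda6, 8.18 in hda9 and 9.11 in Col-0. NF-YB6 (L1L), a subunit of a CCAAT-binding factor of the embryo, had the highest level in Col-0, with 15.0 RPKM in sant-null, 21.4 in hda6, 14.2 in hda9 and 21.2 in Col-0. The B3 factor gene ABI3 had 13.6 RPKM in sant-null, 14.5 in hda6, 11.7 in hda9 and 14.8 in Col-0. Both were lowest in hda9 and short of 1.5-fold in every mutant. LEC1, whose product starts the embryonic programme, had 9.77 RPKM in sant-null, 12.7 in hda6, 7.47 in hda9 and 11.1 in Col-0. The B3 factor gene LEC2 had 4.32 RPKM in sant-null, 5.77 in hda6, 5.07 in hda9 and 4.41 in Col-0. Its relative FUS3 had 4.68 RPKM in sant-null, 2.70 in hda6, 5.54 in hda9 and 2.84 in Col-0. Per length, LEC2 and FUS3 thus carried less Khib than the storage genes their products switch on in the seed. ABI3 did not share this: its 14.8 RPKM in Col-0 lay above OLEO1 (14.2), OLEO2 (10.6) and SESA5 (10.2).

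Of the 15 regulators, 2 were higher and 0 lower in sant-null, 1 and 0 for hda6, and 5 and 1 for hda9, where 23.7%, 9.08% and 43.7% of all genes were higher in these mutants in turn. Lower were 6.01%, 3.05% and 9.08% of all genes. The counts of higher regulators are thus no more than all genes would give. BZIP53, a bZIP factor that binds promoters of 2S albumin genes, had 12.3 RPKM in sant-null, 7.41 in hda6, 11.2 in hda9 and 4.17 in Col-0. It was the only one of the 15 counted as higher in every mutant, with log2 ratios of 1.37 in sant-null, 0.70 for hda6 and 1.24 for hda9. WRI1, the regulator of seed oil synthesis, had 6.28 RPKM in sant-null, 5.06 in hda6, 7.34 in hda9 and 3.67 in Col-0, and counted as higher in sant-null (0.64) and hda9 (0.83). EEL (0.92), FUS3 (0.77) and the chromatin remodeller gene PKL (0.69) were the others in hda9. EEL had 4.37 RPKM in sant-null, 5.05 in hda6, 7.07 in hda9 and 3.27 in Col-0, and PKL had 3.79 in sant-null, 3.54 in hda6, 5.84 in hda9 and 3.25 in Col-0. With the trend on level removed, the hda9 values were -0.013 for EEL, -0.19 for FUS3, -0.24 for PKL and 0.040 for WRI1, whereas BZIP53 stayed at 0.62. Without that step, the only lower regulator was DPBF2 (bZIP67) in hda9, at -0.65, with 8.15 RPKM in sant-null, 9.87 in hda6, 6.96 in hda9 and 11.5 in Col-0. With the trend removed, 13 of the 15 lay below 0 in hda9. DPBF2 (-1.03), LEC1 (-0.82) and LEC2 (-0.77) were then lower past 1.5-fold, where 10.5% of all genes were. In sant-null DPBF2 was at -0.71 on that scale.

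The remaining regulators stayed short of 1.5-fold. ABI5 had 13.5 RPKM in sant-null, 12.5 in hda6, 10.6 in hda9 and 10.9 in Col-0. BZO2H1 (bZIP10) had 8.26 RPKM in sant-null, 8.34 in hda6, 8.18 in hda9 and 5.73 in Col-0. BZIP25 had 10.2 RPKM in sant-null, 10.7 in hda6, 8.36 in hda9 and 9.54 in Col-0. Of these bZIP genes, BZO2H1 was lowest in Col-0 and BZIP25 lowest in hda9. HSI2 (VAL1), a repressor that shuts off the seed programme at germination, had 8.37 RPKM in sant-null, 8.60 in hda6, 9.18 in hda9 and 9.11 in Col-0. Its relative HSL1 (VAL2) had 10.3 RPKM in sant-null, 11.1 in hda6, 9.87 in hda9 and 12.0 in Col-0.

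Genes that a green seedling uses and genes of the flower served to place the levels. The 9 leaf genes, for chlorophyll-binding proteins and the small subunit of Rubisco, had a median percentile of 97.2 in sant-null, 97.9 in hda6, 95.1 in hda9 and 99.1 in Col-0. In each genotype this median was the value of CAB3, the lowest of the chlorophyll-binding genes. The Rubisco genes lay lower, in Col-0 at percentile 87.1 for RBCS1A, 68.4 for RBCS1B, 87.7 for RBCS2B and 85.5 for RBCS3B. In Col-0 they lay below SESA1 to SESA4 and the cruciferin genes, while RBCS1A lay above CRB in sant-null and hda9. RBCS1B, at percentile 46.9 in sant-null and 36.8 in hda9, lay below every member in each genotype. The members had median percentiles of 89.9 in sant-null, 92.5 in hda6, 89.5 in hda9 and 95.2 in Col-0. The 10 floral organ identity genes lay far below, at median percentiles of 14.3 in sant-null, 16.8 in hda6, 7.30 in hda9 and 19.0 in Col-0. The ranges of percentiles of the members and the floral genes did not overlap in any genotype. Of the leaf genes, 4 were lower at 1.5-fold in sant-null, 1 for hda6 and 6 for hda9, and 0 were higher. Of all genes, 6.01%, 3.05% and 9.08% were lower in these mutants in turn, and 23.7%, 9.08% and 43.7% higher. With the trend on level removed, the hda9 median was -0.91 for the leaf genes and -0.14 for the members. CAB2 had the lowest log2 ratio in sant-null (-0.78) and in hda6 (-0.62), and LHB1B2 in hda9, with 41.7 RPKM in hda9 against 169 in Col-0. Of the floral genes, only SHP2 reached 1.5-fold, at 0.59 in hda9, where 43.7% of all genes were higher.

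**Figure D5:**
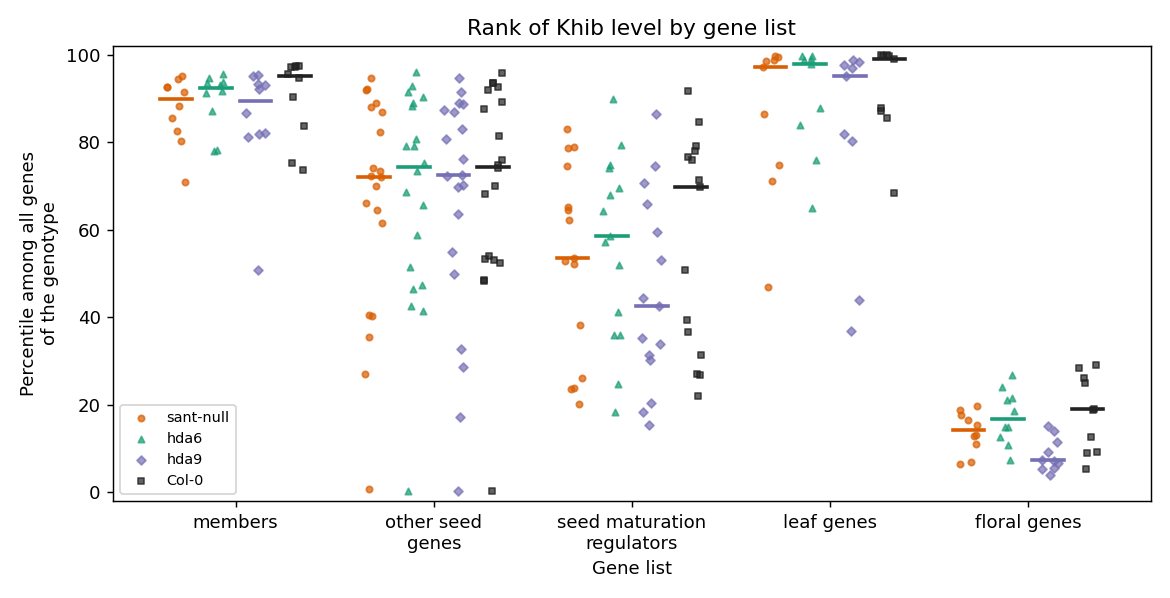
Percentile of Khib level among all genes of a genotype (y axis) for 5 gene lists (x axis), with 1 point per gene and genotype and bars at the median. The 10 members lie between percentiles 50.8 and 97.5, and the 10 floral genes between 3.95 and 29.1.

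Genes outside the lists with the most similar pattern were taken by the Euclidean distance of their 3 log2 ratios to the median ratios of the members. The search covered 751 protein-coding genes with a symbol and a length from 500 bp whose Col-0 level lay within 0.5 log2 units of the members' median. The nearest were the AT-hook genes ESC (distance 0.032) and SOB3 (0.043), followed by TIM17-1 (0.048), GH3.1 (0.051) and DGR1 (0.065). ESC had 19.2 RPKM in sant-null, 24.4 in hda6, 15.5 in hda9 and 27.4 in Col-0. Among the members themselves, CRC (0.057) and CRA1 (0.077) lay closest to that median and SESA5 (1.55) and OLEO1 (1.01) farthest.

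Islands of Khib, the enriched intervals that the authors compared between genotypes, covered 8 of the 10 members in each of the 3 authors' deposited tables, and none overlapped SESA5 or OLEO2. In the authors' deposited table on sant-null, 51.5% of all genes and 81.2% of genes within the members' range of Col-0 levels were covered, so that 8 of 10 is near the share of genes at their level. The island at CRA1 (chromosome 5, 17756401 to 17758200) covers 85.8% of the gene. In the authors' deposited table on sant-null it had 445 reads in the mutant and 881 in Col-0, with 0.705 as the fold and an FDR for lower of 4.78e-22. In the authors' deposited table on hda6 it had 757 reads in the mutant and 881 in Col-0, with a fold of 0.899 and an FDR of 0.00424. In the authors' deposited table on hda9 it had 1127 reads in the mutant and 881 in Col-0, with a fold of 0.622 and an FDR of 1.62e-38. The FDR compares the reads of 1 value per genotype, not the conditions. From the RPKM, the folds of CRA1 were 0.679 in sant-null, 0.896 for hda6 and 0.547 for hda9.

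The other 7 covered members lie on chromosomes 1 and 4, where island reads and gene reads did not match. The island at CRB (chromosome 1, 985801 to 988000) lies within the gene, but in the authors' deposited table it held 764 reads in sant-null and 1009 in Col-0, more than the 467 reads in sant-null and 868 in Col-0 of the whole gene in the RPKM table. Over all islands inside a gene of at least 1 kb in the authors' deposited table on sant-null, 38.5% on chromosome 1, 49.0% on chromosome 2 and 53.4% on chromosome 4 held more Col-0 reads than that gene, against 5.01% on chromosome 3 and 4.55% on chromosome 5. The cause was not tested, and the coverage and folds of members on chromosomes 1 and 4 are uncertain to that extent.

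Some of these folds differed from those of the genes. The gene folds rest on other library totals, and the islands named below, except that at CRB, reach beyond the gene. What made the folds differ was not tested. At CRB the authors' deposited tables gave 1.06 in sant-null, 1.18 for hda6 and 0.886 for hda9, where the RPKM gave 0.834 in sant-null, 1.17 for hda6 and 0.662 for hda9. The island over SESA2 to SESA4 had a fold of 0.881 in the authors' deposited table on sant-null and 0.768 in that on hda9, where the genes had 0.579 to 0.689 in sant-null and 0.496 to 0.558 for hda9. That island spans 5200 bp, while these genes have 688 to 768 bp each. At SESA1 the authors' deposited tables gave 0.843 in sant-null, 0.762 for hda6 and 0.904 for hda9, where the gene had 0.597 in sant-null, 0.733 for hda6 and 0.494 for hda9. The SESA1 island spans 800 bp for sant-null and hda6 but 3400 bp for hda9, where the gene has 703 bp. Most of the hda9 island thus lies outside SESA1. At CRC the authors' deposited tables gave 0.917 in sant-null, 0.973 for hda6 and 0.855 for hda9, and at OLEO1 0.951 in sant-null, 1.04 for hda6 and 0.823 for hda9. The CRC island spans 3200 bp, or 5000 bp for hda9, beside a gene of 2241 bp. The OLEO1 island spans 2600 bp, or 3200 bp for hda9, beside a gene of 1148 bp. Except at OLEO1, the island folds of these members were higher than the gene folds in sant-null and hda9.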

How the data were processed

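The authors deposited RPKM values per gene and genotype in 4 tables, per the file headers. They deposited read counts per island, the same as RPM, a fold as the ratio of the normalized counts, and a p-value and FDR for each direction in 3 tables, per the file headers. The sources used here do not say how the 2 ChIP libraries of a genotype were combined or whether input entered. TAIR10, CASAVA, Bowtie2 2.2.5, SICER 1.0.3 and bedtools are named in the submitters' processing notes. Per the labels, tissue was fixed with 1% formaldehyde during 15 min.

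Reads were recovered from RPKM, length and the smallest step shared by all values of a genotype (100% whole within 0.01 reads). Python 3.11.15, pandas 2.3.3 and scipy 1.17.1 were used. With 1 value per genotype no test was made: log2 ratios with a pseudocount of 1 RPKM were described beside all genes. Fold intervals are conditional exact (Clopper-Pearson). The ratio and interval steps were tested on simulated data. Symbols came from RefSeq (TAIR10.1, used for names alone), which held all 32548 loci. The 10 members and the gene lists were chosen with earlier results of these data known. Named genes are all 10 members, at most 4 per list and comparison by largest absolute log2 ratio, every regulator by its level, at most 2 neighbours per member past 1.5-fold, and the 5 genes of nearest pattern. AT3G01570, AT1G03890, OLEO3, OLEO4, HSD1, AT5G50700 and the flanks of the albumin cluster were named outside this rule, after their values were seen. CAB3 and the Rubisco genes were named in the same way. SESA1 to SESA4 were skipped as each other's neighbours. Islands inside a gene were compared with that gene's reads by chromosome. Pseudocounts, filters, scalings and folds were varied.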

Additional observations from a re-analysis of the deposited data

How the results depend on the processing

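No paired analysis was possible because the tables hold 1 value per genotype, and leaving out a replicate was not run for the same reason. Pseudocounts of 0.1 and 5 RPKM and no filter on low values moved no median or count of the 10 members beyond counting error or 1.5 times. With equal medians the median log2 ratio was -0.92 in sant-null, -0.45 for hda6 and -1.38 for hda9, and lower members at 1.5-fold numbered 7 in sant-null and 3 in hda6. After quantile normalization the hda9 median was -0.43, with 1 lower member in hda9 and 1 in hda6. With the trend on level removed the median was -0.25 in sant-null and -0.14 in hda9, with 0 lower members in either. At 2-fold there were 0 lower members in sant-null and 0 in hda9. Without SESA1 to SESA4 the median was -0.092 in sant-null, 0.28 for hda6 and -0.39 for hda9. An island overlap of 50% left 8 members covered in each table. Of the values of single members and islands, 81 moved and 145 did not, and none changed direction past 1.5-fold. Some smaller ratios did change sign, as at SESA5 with equal medians in sant-null and hda9. Depth is lowest in sant-null, where the 2S albumin and oleosin genes had 140 to 225 reads each, and no value carries an error between replicates.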
